A study of Rattus norvegicus with 6 samples.

Results

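The natriuretic peptide genes are 3 hormone precursors, 3 receptors and 3 proteases that cut the precursors or the finished peptides. The members Nppa, Nppb, Nppc, Npr1, Npr2, Npr3, Corin, Furin and Mme were chosen by symbol, through the accession that names each probe, and all 9 of 9 were found among the 16575 genes named on the array. They have 12 of the 45598 different probes. Gene expression was measured in neonatal rat ventricular myocytes (NRVMs), which are primary heart muscle cells taken from the ventricles of Sprague-Dawley rats at 1 to 2 days of age. The hearts of 8 to 10 rats were pooled for a preparation, and the records give a serum-free medium and cover glasses coated with collagen. The study's methods instead give a serum starvation step before C3a, and which of these applied to the arrays is not settled here. The control group is 3 cultures in medium without C3a, and the C3a group is 3 cultures given recombinant C3a protein, the small fragment released when complement C3 is cut, at 0.5 µg/ml for 12 h. Whether the 3 cultures of a group came from separate preparations is not given in the sources used here, so the p-values measure only the spread between these cultures, which may be technical. The question was whether C3a acts on gene expression in cardiomyocytes.

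Natriuretic peptides are hormones of the heart that make the kidney excrete salt and water and that relax blood vessels. Nppa encodes the precursor of atrial natriuretic peptide (ANP), Nppb that of B-type natriuretic peptide (BNP) and Nppc that of C-type natriuretic peptide. Npr1 and Npr2 encode receptors that make cyclic GMP inside the cell when a peptide binds, whereas Npr3 encodes a clearance receptor that takes the peptides up and has no cyclase. Corin cuts the ANP precursor at the cell surface, furin is a convertase of the secretory pathway that cuts many precursors, including that of BNP, and Mme encodes neprilysin, a peptidase that degrades the circulating peptides. In the ventricle, Nppa and Nppb are active before and around birth and again under load, and they serve as markers of hypertrophy and heart failure.

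Each culture was hybridised to its own 1-colour Agilent array. Signals are given as relative log2 values, for which the 75th percentile over all probes of an array is 0, so that 75% of the probes lie below 0. A probe was taken as measured on an array where the scanner software called it well above background. All arrays were on 1 slide, with the control arrays in one column and the C3a arrays in the other, so position on the slide and treatment cannot be told apart. On control replicate 1 the local background was at a median of 47 intensity units, where the other arrays had 23 or 24, and 38.6% of its probes counted as measured, where the others had 53.7% to 57.3%. The number of arrays limits the precision. Of the cardiomyocyte markers, 10 of 11 had a named probe and all 10 were measured on 6 of 6 arrays, with Myh6, Actc1, Tnnt2 and Myh7 the brightest.

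Nppa and Nppb lie on the same strand of chromosome 5 in the rat. Their promoters are shown because these were the brightest members and because the factors described for them in the heart (GATA4, NKX2-5, TEAD) are among the genes examined below. The sequences are from RefSeq on the GRCr8 build and run from 250 bases before to 50 bases after the start of the gene. Capitals mark matches on either strand to the motifs searched. For the GATA factors the motif was TGATAA, with AGATAA as its variant. TEAD factors were searched by their M-CAT element, which reads CATTCC. For NKX2-5 the core of its element was taken, which is AAGTG. The TATA box was searched as TATAAA, and the site of AP-1 factors as TGANTCA. No 2 matches overlapped in these windows. The windows are chr5:163711934-163712233 for Nppa and chr5:163699758-163700057 for Nppb, both on the plus strand.
Nppa: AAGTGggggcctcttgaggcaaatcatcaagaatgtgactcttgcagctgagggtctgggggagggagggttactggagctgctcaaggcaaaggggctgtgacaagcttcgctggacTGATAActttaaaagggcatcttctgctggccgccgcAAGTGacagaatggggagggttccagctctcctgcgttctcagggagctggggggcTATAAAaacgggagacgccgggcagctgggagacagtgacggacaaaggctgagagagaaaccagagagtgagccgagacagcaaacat
Nppb: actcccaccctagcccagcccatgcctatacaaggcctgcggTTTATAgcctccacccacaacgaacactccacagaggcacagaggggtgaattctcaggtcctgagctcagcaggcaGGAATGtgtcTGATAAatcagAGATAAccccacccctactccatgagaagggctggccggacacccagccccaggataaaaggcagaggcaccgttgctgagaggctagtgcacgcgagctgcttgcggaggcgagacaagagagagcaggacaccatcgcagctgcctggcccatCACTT

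Both promoters held a TGATAA, at -132 to -127 from the start in Nppa and at -121 to -116 in Nppb. This motif was in 9.0% of the 33469 promoters of the same length. The Nppb window had in addition an AGATAA at -110 to -105 and, on the other strand, a CATTCC at -131 to -126, motifs found in 11.6% and 14.2% of all promoters. The Nppa window had an AAGTG at -95 to -91 and another at its first base, a short motif that 46.2% of promoters hold, and a TATAAA at -39 to -34, which 14.2% hold. Nppb matched AAGTG and TATAAA only on the other strand. The TGANTCA motif was in neither window and in 7.3% of all promoters. Promoter windows were found for 7 of the 9 members and not for Npr2 and Furin, and only those of Nppa and Nppb are printed. Of the others, Nppc held a TATAAA at -48 to -43 and Npr3 an AAGTG on the other strand at 37 to 41. A match describes these letters only and is not evidence of binding.

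Nppb and Nppa were the brightest members. On average over the arrays only 1.70% of all probes were brighter than Nppb and 2.13% were brighter than Nppa, while 43.1% were brighter than Nppc. Such a rank orders probes, which also differ in how well they hybridise, and is not an order of transcript amounts. Ranked next were Furin, with 7.06% of probes brighter, and Corin, with 7.99%. The receptors of the cyclase type were in the middle, with 19.0% of probes brighter than Npr2 and 24.9% brighter than Npr1. The dimmest were Npr3, with 44.7%, and Mme, with 60.6%. On the single arrays the ranks of Furin, 3037 to 3569 from the brightest, overlapped with those of Corin, 3277 to 3917, and those of Nppc, 18702 to 20764, with those of Npr3, 18871 to 21924, so these neighbours were not separated. Nppb was brighter than Nppa on each array, although their ranks of 734 to 869 and 853 to 1144 met. Nppa, Nppb, Npr1, Npr2, Corin and Furin were measured on 6 of 6 arrays. Nppc and Npr3 were measured on 5 of 6, in both cases on all but control replicate 1, and Mme was measured on 0 of 6.

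**Figure D1:**
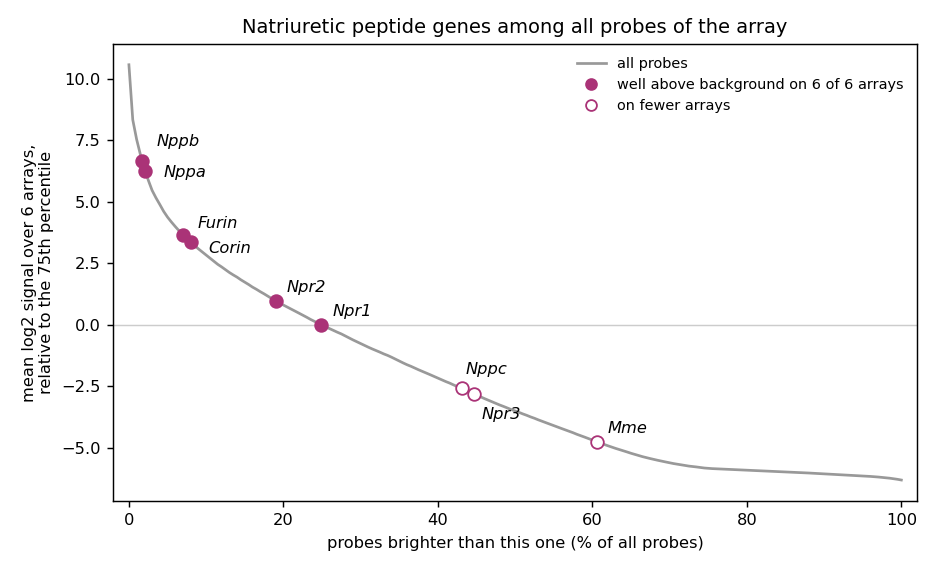
Mean relative log2 signal over the 6 arrays against the percentage of probes that were brighter. The grey line is all probes, filled circles are members measured on 6 of 6 arrays and open circles are members measured on fewer, from Nppb at 1.70% to Mme at 60.6%.

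C3a made no difference that passed the test in any member. The probes compared with limma were the 23438 that every array of control, of C3a or of both had measured. Of them, 17519 were measured on all control arrays and 23425 on all C3a arrays, so many entered through C3a alone. Nppc and the tested probes of Npr3 did so, and such an entry is not neutral to the direction of a difference. Of the 23438, 0 passed an adjusted p of 0.05 (0%), and 0 of the 8 members among them did. At an unadjusted p under 0.05 there were 1368 probes (5.84%) and again 0 of the 8 members, and the methods' t-test also gave 0 of 8 at that level. With the replicate number as a block the unadjusted count was 3198 (13.6%), still with 0 of the 8 members. It was 2147 without control replicate 3 and 802 without C3a replicate 3. The C3a arrays lay wholly above or wholly below the controls for 12.5% of the probes tested, and for 1 of the 8 members, Furin. The log2 differences of the 8 members ran from -0.14 to 0.25 with a median of 0.004, and 4 were above 0 and 4 below. The median was 0.048 over all probes tested and 0.036 over the 10390 named genes tested, each by its brightest probe. On arrays of whole cultures, fewer cells of a type and less RNA per cell cannot be told apart.

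**Figure D2:**
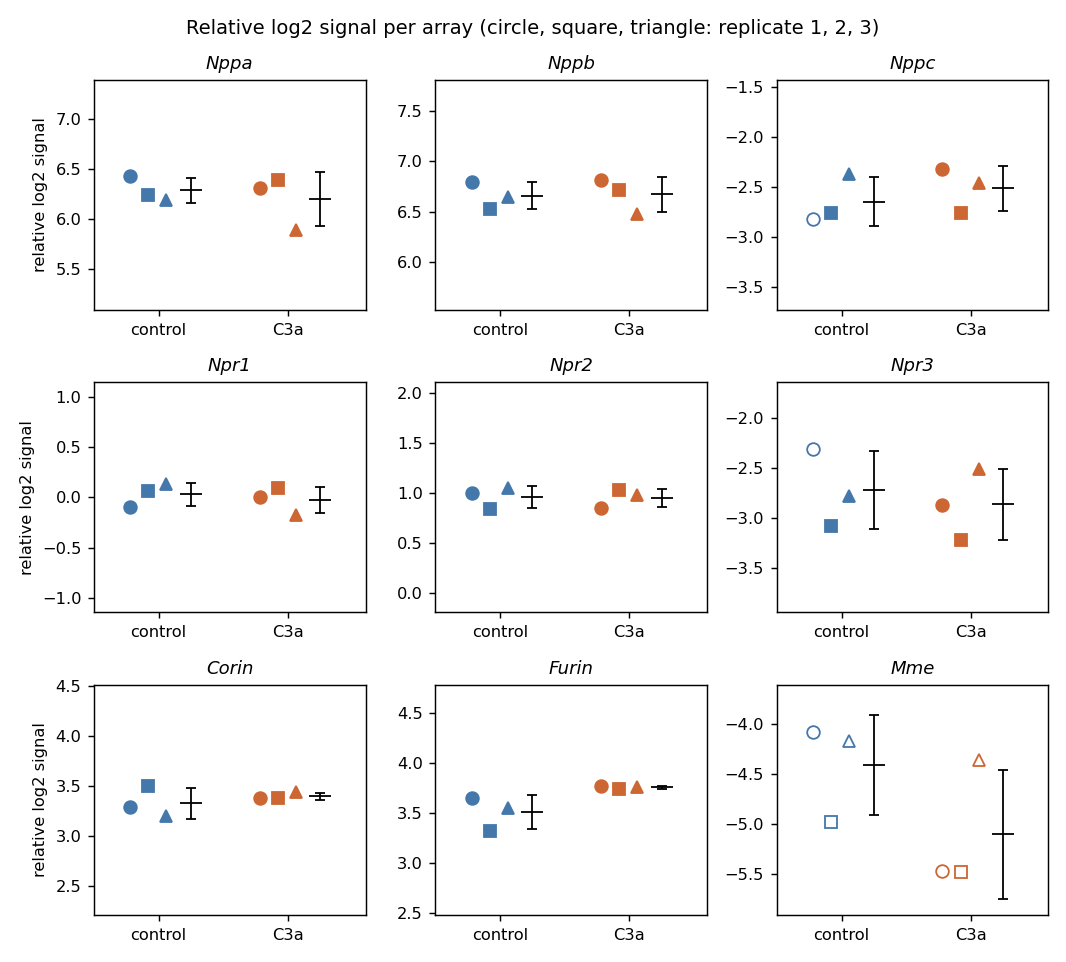
Relative log2 signal of each member on each array, with controls in blue and C3a in orange. Circles, squares and triangles are replicates 1, 2 and 3, open symbols are arrays where the probe was not well above background, bars are the mean and SD of 3 arrays, and every panel spans the same range of log2 units. The groups overlap in every panel but that of Furin, where the C3a arrays lie at 3.74 to 3.77 and the controls at 3.32 to 3.65.

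Among the ligands, Nppa (NM_012612) had a relative log2 signal of 6.43, 6.24 and 6.19 in control replicates 1, 2 and 3, and of 6.31, 6.39 and 5.89 in the C3a replicates. C3a replicate 3 was the lowest array and the other C3a arrays lay within the range of the controls. The mean was 6.29 ± 0.12 (SD, n = 3) in control and 6.20 ± 0.27 (SD, n = 3) with C3a. The difference was -0.092 on the log2 scale with a 95% confidence interval of -0.45 to 0.27, that is between 0.731-fold and 1.20-fold (adjusted p = 0.859 from limma). Without C3a replicate 3 the difference was 0.061, on the other side of 0.

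Nppb (NM_031545), measured by a probe with 2 spots per array, gave 6.80, 6.53 and 6.65 in the controls and 6.82, 6.72 and 6.48 with C3a. The groups covered almost the same range, and C3a replicate 3 was again the lowest array. Means were 6.66 ± 0.14 (SD, n = 3) and 6.67 ± 0.17 (SD, n = 3), a log2 difference of 0.013 with an interval of -0.29 to 0.31 (adjusted p = 0.978 from limma). In fold terms the interval runs from 0.820 to 1.24 under this scaling. Changes of Nppb within these bounds were not resolved with 3 arrays a group. The bounds are not a limit of detection, since the test was adjusted over 23438 probes. The bounds depend on the scaling. The log2 difference was -0.31 without normalization and -0.44 with spike-in scaling, where the medians over all probes were -0.277 and -0.401.

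Because the arrays are scaled to one another, the signal of Nppa was also set against that of Nppb on the same array, a difference that does not depend on such scaling. It was -0.37, -0.28 and -0.46 in the controls and -0.51, -0.33 and -0.59 with C3a. The value of C3a replicate 2 lay among the controls. The groups differed by -0.10 in the mean (two-sided exact permutation test, p = 0.3, where the smallest possible with 3 against 3 arrays is 0.1). The corresponding comparison of Npr3 with Npr1 was not made, since Npr3 was not measured on every array.

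Nppc (NM_053750), the peptide made mainly outside cardiomyocytes, gave a dim signal of 37.6 to 54.3 intensity units. Relative to the array it was -2.82, -2.76 and -2.37 in the controls, the first of them not well above background, and -2.32, -2.76 and -2.46 with C3a. The groups overlapped. The difference was 0.14 with an interval of -0.26 to 0.53 (adjusted p = 0.812 from limma). Leaving out control replicate 1, on which Nppc was not measured, gave 0.05, and leaving out control replicate 3 gave 0.28.

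Of the receptors, Npr1 (NM_012613), the receptor of ANP and BNP, was at -0.10, 0.06 and 0.13 in the controls and at 0.00, 0.09 and -0.17 with C3a. C3a replicate 3 was the lowest, as for Nppa and Nppb. The means, 0.03 ± 0.12 (SD, n = 3) and -0.03 ± 0.13 (SD, n = 3), differed by -0.058 with an interval of -0.33 to 0.21 (adjusted p = 0.885 from limma).

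Npr2 (NM_053838), the receptor of C-type natriuretic peptide, had the smallest difference of all members. It gave 1.00, 0.84 and 1.05 in the controls and 0.85, 1.03 and 0.98 with C3a, so the 2 groups spanned the same values. Means were 0.96 ± 0.11 (SD, n = 3) and 0.96 ± 0.09 (SD, n = 3), and the interval of the log2 difference was -0.25 to 0.24 (adjusted p = 0.989 from limma). Both cyclase receptors were thus measured on every array, and any change with C3a within these intervals could not be resolved.

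Npr3, the clearance receptor, has 3 probes that did not agree. The brightest (NM_012868) gave -2.31, -3.08 and -2.78 in the controls and -2.87, -3.22 and -2.51 with C3a, and its difference was -0.14 with an interval of -0.72 to 0.43 (adjusted p = 0.859 from limma). The value of -2.31 came from control replicate 1, where the probe was not well above background, and without that array the difference was 0.06. A second probe of the same transcript gave -4.09, -2.97 and -2.93 in the controls and -2.80, -3.14 and -2.65 with C3a. Its difference of 0.47 (adjusted p = 0.742 from limma) was 0.09 without control replicate 1, so on the 5 arrays that measured both probes they were close. The remaining probe, of another transcript (XM_006232045), had intensities of 11.2 to 28.1 and was not tested, being measured on control replicates 2 and 3 alone. No direction is given for Npr3.

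Corin, the protease that activates ANP, has 2 probes of very different brightness. The brighter one (XM_008770139) was at 2245 to 4148 intensity units, and the dimmer one (NM_182473) at 85.5 to 229.6. The brighter probe gave 3.29, 3.50 and 3.20 in the controls and 3.38, 3.38 and 3.44 with C3a. All C3a arrays fell inside the range of the controls. Its means were 3.33 ± 0.15 (SD, n = 3) and 3.40 ± 0.04 (SD, n = 3), which differ by 0.07 with an interval of -0.19 to 0.32 (adjusted p = 0.850 from limma). The dimmer probe differed by 0.004 with an interval of -0.56 to 0.57 (adjusted p = 0.998 from limma). Control replicate 2 was the highest array for both probes, at 3.50 and -0.68.

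Furin (NM_019331) was the member whose arrays separated by group. It gave 3.65, 3.32 and 3.55 in the controls and 3.77, 3.74 and 3.76 with C3a, so each C3a array lay above each control, and the C3a arrays were close together while the controls spread. The mean was 3.51 ± 0.17 (SD, n = 3) in control and 3.75 ± 0.02 (SD, n = 3) with C3a. The difference of 0.25 is 1.19-fold, with an interval of -0.02 to 0.51 on the log2 scale or 0.988-fold to 1.43-fold, and it did not pass the test (unadjusted p = 0.0631, adjusted p = 0.742 from limma). A separation of this kind was the case for 12.5% of the probes tested and has an exact two-sided permutation p of 0.1, the smallest that 3 against 3 arrays can give. Before scaling the groups overlapped, at 3153 to 3659 intensity units in control and 2798 to 3837 with C3a, and without normalization the difference was -0.078, where the median over all probes was -0.277. Control replicate 2 was the lowest Furin array, and without it the difference was 0.15.

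Mme (NM_012608) was not well above background on any of the 6 arrays. Its intensity was 11.6 to 16.2 units in the controls and 5.19 to 10.1 with C3a, so no fold change is given and it was not tested. The C3a arrays were the lower ones in unscaled intensity. On the relative scale the groups overlapped, with C3a replicate 3 at -4.36 and control replicate 2 at -4.98. Signals at this level are not a measurement of the transcript.

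**Figure D3:**
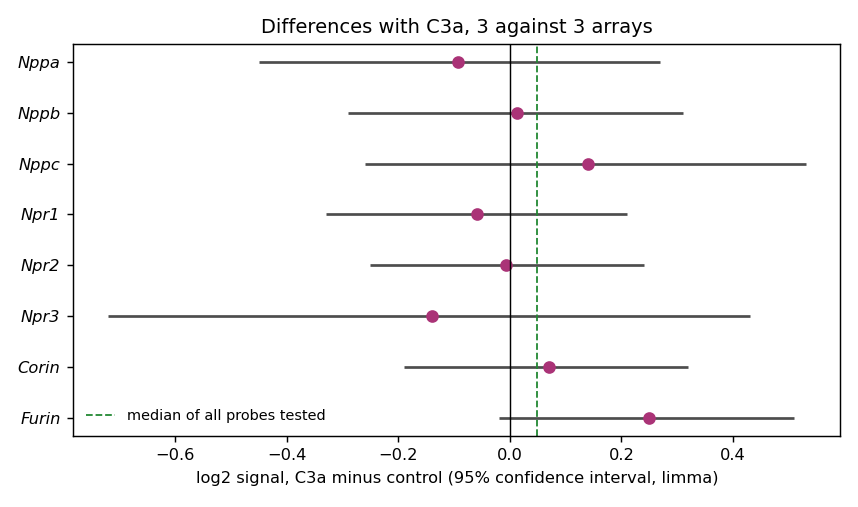
Log2 signal with C3a minus control for the 8 members tested, with 95% confidence intervals from limma. The solid line is 0 and the dashed line is the median of all probes tested, 0.048, and every interval includes 0, that of Furin from -0.02 to 0.51.

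The arrays that were high or low for one member were not so for all. C3a replicate 3 lay under the mean of its group by 0.31 for Nppa, 0.19 for Nppb and 0.14 for Npr1, while for Npr3 it lay 0.35 above it. For Nppa, the genes with the most similar signal over the 6 arrays were Pih1d1, Aldoa and Sdhaf1, with Pearson's r of 0.998, 0.997 and 0.995. For Nppb they were Srp9, Ak6 and Coq3, with r of 0.997, 0.995 and 0.994. With 6 arrays such values are common, since 334 of the 10389 other genes had an r above 0.9 with Nppa and 595 with Nppb. Nppa and Nppb, neighbours on the chromosome, had an r of 0.81 with each other, and Nppa was 1364th among the partners of Nppb.

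Genes that act with the members were examined as lists. Where the C3a arrays of a gene named here all lay on one side of the controls, this is said, and it was so for 12.5% of all probes tested. Of 17 transcription factors that act on the Nppa and Nppb promoters, 16 had a named probe and were tested, and 0 passed the adjusted threshold. Their median log2 difference was 0.096, with 14 above 0 and 2 below. Over all 10390 named genes tested, each by its brightest probe, it was 0.036, with 6306 above 0 and 4084 below. Over all probes tested it was 0.048, with 14606 above 0 and 8832 below. The 2 factors below 0 were Gata4, at -0.04, and Gata6, at -0.06, while the TEAD factor Tead1 was at 0.03. The 4 brightest factors were Srf, Mef2d, Klf15 and Nkx2-5. Srf, which binds serum response elements, differed by 0.12, Mef2d, a MADS-box factor, by 0.02, Klf15, a repressor of hypertrophic genes, by 0.07, and Nkx2-5, the cardiac homeobox factor, by 0.15 (adjusted p between 0.749 and 0.965 from limma). At an unadjusted p under 0.05 there was 1 gene, Tbx20, a T-box factor of the heart, with a difference of 0.49 (unadjusted p = 0.0469 from limma), which is named after its value was seen. The groups of Tbx20 overlapped, and those of Rest, a repressor, were apart, with each C3a array above each control and a difference of 0.09 (adjusted p = 0.768 from limma).

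For cyclic GMP, which Npr1 and Npr2 produce, the list held 21 genes, of nitric oxide synthases and the cyclases that nitric oxide drives, of kinases and their substrates, of phosphodiesterases and exporters, and of regulators of G protein signalling. Of these, 14 were tested and 0 passed, with 7 above 0 and 7 below and a median of 0.018. The 4 brightest were Vasp, a substrate of the cyclic GMP-dependent kinase, with a difference of 0.15 and each C3a array above each control, Pde2a, a phosphodiesterase stimulated by cyclic GMP, with 0.08, Rgs2, a regulator of G protein signalling, with 0.10, and Abcc5, an exporter of cyclic nucleotides, with -0.10. Named after its value was seen, Nos3, the endothelial nitric oxide synthase, was the 1 gene at an unadjusted p under 0.05, at -1.41 ± 0.20 (SD, n = 3) in control and -1.80 ± 0.17 (SD, n = 3) with C3a (unadjusted p = 0.0278, adjusted p = 0.742 from limma). Each C3a array of Nos3 lay below each control. The kinase gene Prkg1 was measured on 5 of 6 arrays, and Prkg2, Pde1a, Pde9a and Nos1 on 0 of 6.

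Of 10 further convertases, peptidases and partners of the peptides, 5 were tested and 0 passed, with a median of 0.003. The brightest were Ide, the insulin-degrading enzyme, with a difference of 0.07 and each C3a array above each control, and Pam, an amidating enzyme of secretory granules, with a difference that rounds to 0.00. The others were Pcsk7, a further convertase, with a difference that also rounds to 0.00, Pcsk6, a convertase that activates corin, at -0.06, and Pcsk5, a convertase related to furin, at 0.30 (unadjusted p = 0.0279, adjusted p = 0.742 from limma), with the groups again apart. Pcsk2, Mmel1 and Ostn, the last a ligand of the clearance receptor, were measured on 0 of 6 arrays. All 5 other receptor cyclases, Gucy2c, Gucy2d, Gucy2e, Gucy2f and Gucy2g, were likewise at 0 of 6. Guca2a, which encodes guanylin, the ligand of Gucy2c, was tested, with a difference of -0.08 (adjusted p = 0.907 from limma), and Guca2b, which encodes uroguanylin, was not.

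Markers of other cells were present in these cultures. Fibroblast markers were measured on every array for 7 of 10 genes, with Col1a2, Col1a1, Col3a1 and Ddr2 the brightest, and endothelial markers for 6 of 9, led by Vwf, Kdr, Pecam1 and Tek. Smooth muscle markers were measured on every array for 3 of 5 genes, with Tagln, Acta2, Myh11 and Cnn1 the brightest. Among macrophage markers Lyz2 and Cd68 were measured on every array, C1qb and Csf1r on 5, and C1qa and Mrc1 on 0. The ventricular markers Myl2, Myl3 and Irx4 and the atrial markers Myl4, Myl7, Sln and Nr2f2 were measured on 6 of 6 arrays, Hey2 on 5, and the atrial markers Bmp10 and Kcna5 on 0. Preplating, which lets non-muscle cells settle first, was part of the preparation. In these marker lists 0 genes passed the adjusted threshold, and 1, the fibroblast gene Lum, had an unadjusted p under 0.05 (0.0369 from limma, with a difference of -0.54). Of the endothelial markers, Tek, a receptor of angiopoietins, had each C3a array below each control, with a difference of -0.23 (adjusted p = 0.742 from limma). Tie1, which was measured on 4 of 6 arrays and not tested, was also lower on each C3a array. The other endothelial markers did not share this direction, since of the 6 tested 4 were above 0 and 2 below, with a median of 0.102. Among those above 0 were Vwf at 0.24 and Cdh5 at 0.26, while Esam was below at -0.23.

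The summed signal of the 10 cardiomyocyte markers was 12.15 to 12.49 on the log2 scale in control and 12.42 to 12.59 with C3a. For the ventricular markers it was 9.78 to 10.22 and 10.21 to 10.40, and for the atrial ones 7.85 to 8.28 and 8.11 to 8.36. That of 7 fibroblast markers was 6.62 to 6.81 and 6.61 to 6.83. For 6 endothelial markers, a cell type that also makes Nppc and Npr3, it was 5.07 to 5.53 and 5.41 to 5.75. It was 5.04 to 5.26 and 5.09 to 5.19 for 3 smooth muscle markers, and 2.44 to 2.77 and 2.40 to 2.55 for 2 macrophage markers. The ranges of control and C3a overlapped for each list. The part of the cell types in the differences of Furin and the other members was not tested.

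**Figure D4:**
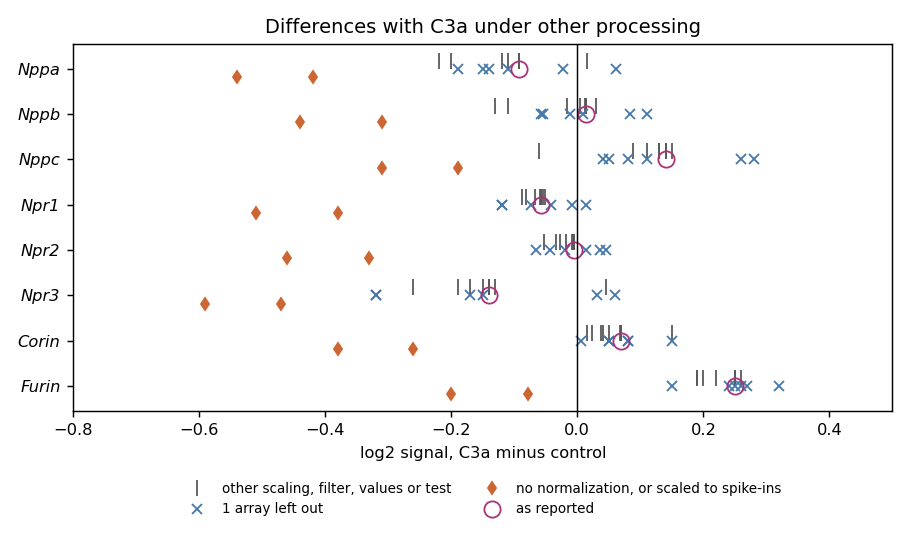
Log2 signal with C3a minus control for the 8 members as reported (circle), with 1 array left out (crosses), under other scalings, filters, values or tests (bars), and without normalization or scaled to spike-in transcripts (diamonds). The diamonds lie below 0 for all members, where the median of all probes also fell, to -0.277 and -0.401.

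How the arrays were scaled moved all members together. Without normalization between arrays the 8 differences lay between -0.47 and -0.078, and with scaling to spike-in transcripts between -0.59 and -0.20. Relative to the median of all probes the differences of Furin were 0.20 under both and 0.20 as reported, and those of Nppa were -0.14 under all 3. These 3 versions differ only by a constant on each array, so this equality was fixed in advance. Furin and the brighter probe of Corin kept their direction with each array left out. They also kept it under every alternative that can move a difference, except no normalization and spike-in scaling. The dimmer Corin probe ran from -0.16 to 0.29 with each array left out, so no direction is given for Corin. The filters, the variance trend, the replicate block and the methods' t-test cannot move a difference. Nppa, Nppb, Npr1, Npr2 and Npr3 each changed direction with 1 array left out, and Nppc did so with array weights, so no direction is given for these 6.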

How the data were processed

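Gene expression was analysed in 6 arrays of NRVMs, 3 control and 3 C3a, grouped by the condition and number in their titles. Per the file headers, the authors' scanner software (Agilent Feature Extraction 11.5.1.1) wrote the intensity of each spot after correction for background and spatial trend, not normalized between arrays. A table of log2 values, deposited alongside, matched the log2 intensity less the array's 75th percentile, uncentred, to a median difference of 0.0045 over 36614 probes, with the same direction.

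Control spots (4259 of 62976) and spots flagged as outliers were left out, and log2 values of the spots of a probe were averaged. The 75th percentile was taken over 45572 probes with a value on every array. A probe was well above background where at least 50% of its spots were. Accessions of 46.3% of the probes were found in the RefSeq gene table for GRCr8. Where a gene had several probes, the brightest on average stood for it. The groups were compared without a block by limma (version 3.58.1, R version 4.3.3), two-sided, with Benjamini-Hochberg adjustment over 23438 probes. The limma step was tested on simulated data. Figures were drawn with matplotlib 3.10.9.

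The members and lists were chosen with earlier results of these data known. All members are named, and from each list the 4 brightest tested genes. Deviations from the group mean correlated at 0.28, 0.32 and 0.31 for arrays with the same replicate number and at -0.26 to -0.09 for the others. Because deviations within a group sum to 0, positive values for some pairs go with negative values for others. Arrays of equal number were therefore treated as pairs in the replicate block. Whether they share a preparation, a place on the slide or something else was not tested. The pairing comes from these values and not from the records. Alternatives were other scalings, filters, background correction (normexp on the median spot signal, offset 50), the authors' table, a variance trend, array weights, the replicate block, each array left out and the methods' t-test. For arrays the study's methods name an analysis of variance with Tukey's correction between groups, and the methods' t-test is from their general statistics. It was run here with equal variances, which for a pair of groups gives the same p as a one-way analysis of variance. Protein sequences were not used here.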

Additional observations from a re-analysis of the deposited data

How the results depend on the processing

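The count of members past the adjusted threshold was 0 in all 21 alternatives, among them the replicate block, under which the difference of Furin was 0.25 (adjusted p = 0.376 from limma). The block changed no call. Of 167 values of single members, 143 kept their direction and 24 did not. Many of the 143 were fixed in advance, because the filters, the variance trend, the replicate block and the methods' t-test cannot move a difference. Over the alternatives Furin ranged from -0.20 to 0.32. The number of probes called went from 0 to 4 without normalization, to 16 with spike-in scaling and to 1111 in the methods' t-test without adjustment, which also called 2 of the genes in the other lists and 0 members. At an unadjusted p under 0.05, Furin passed when only probes measured on all 6 arrays were kept, with normexp, a variance trend and array weights, and without control replicate 1 (p from limma between 0.0219 and 0.0471). In these settings between 4.2% (normexp) and 6.47% (variance trend) of all probes tested passed at that level too.

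Without normalization the differences turned to -0.078 for Furin, -0.26 for Corin, -0.19 for Nppc and -0.31 for Nppb, and with spike-in scaling to -0.20, -0.38, -0.31 and -0.44 in the same order. Nppb also turned to -0.13 with quantile normalization, -0.11 with cyclic loess and -0.016 with the percentile over probes measured on all arrays. Array weights gave 0.016 for Nppa and -0.06 for Nppc, and normexp gave 0.046 for Npr3. With each array left out, Nppa ran from -0.19 to 0.061 and Nppb from -0.058 to 0.11. Npr1 ran from -0.12 to 0.014, Npr2 from -0.065 to 0.046 and Npr3 from -0.32 to 0.06. Furin stayed between 0.15 and 0.32, Nppc between 0.04 and 0.28 and the brighter probe of Corin between 0.0054 and 0.15. The cause was not tested. The difference of Nppa relative to Nppb stayed below 0, from -0.18 to -0.048. With the replicate block it was below 0 in 3 of 3 pairs of equal number (-0.10, two-sided exact permutation of the signs, p = 0.25, the smallest possible). The block cannot move this mean difference, and the authors' table holds nearly the same values. The pairs themselves were taken from these data.

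Low signal limits Nppc, Npr3 and Mme. The first of these reached at most 54.3 intensity units, Npr3 at most 54.9 and Mme at most 16.2, and none of them was measured on control replicate 1, which had the higher background.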
